A study of Homo sapiens with 2 samples.

Results

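The promoters of 10 cell cycle genes were examined for binding of the retinoblastoma protein Rb: the cyclin genes CCNE1, CCNE2, CCNA2, CCNB1, CCND1, CCND2 and CCND3, the cyclin-dependent kinase genes CDK1 and CDK2, and CDC25A, which encodes a phosphatase that activates these kinases. Rb-bound DNA had been collected by chromatin immunoprecipitation and sequenced (ChIP-seq) from VCaP and LNCaP, lines of prostate cancer cells that express the androgen receptor. VCaP and LNCaP cells alike were kept for 3 days in 5% charcoal-stripped serum and then treated for 4 h with the androgen dihydrotestosterone (DHT) at 10 nM, so that every value below belongs to androgen-treated cells. Each line is represented by 1 library, and no test between the lines was possible. A peak was assigned to a gene when its summit, the position of most tags, lay within 3 kb of the gene's start site in the hg19 build. This rule gave 8 of the 9423 VCaP peaks and 13 of the 21994 LNCaP peaks.

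Rb restrains entry into S phase by binding E2F transcription factors at promoters of genes needed for DNA replication and division. D-type cyclins with CDK4 or CDK6, and then cyclin E with CDK2, phosphorylate Rb and release E2F, which in turn raises cyclin E, cyclin A and CDC25A, so that several of the genes described here act both upstream of Rb and as targets of E2F. Genes of the later cell cycle such as CDK1, CCNB1 and CCNA2 are also held down in resting cells by the DREAM complex, which contains the Rb relatives p107 and p130 and acts through a promoter element called the cell cycle genes homology region (CHR).

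RefSeq promoter windows, from 250 bases before to 50 bases after an annotated start in GRCh38.p14, were at hand for 6 of the 10 genes (CCNE1, CCNA2, CCNB1, CCND3, CDK1 and CDC25A). The sequences of 4 of them are shown: CDK1 and CDC25A, which were among the 3 genes of highest deposited fold in both lines, CCNE1, which had a peak in both lines, and CCNB1, which had a peak in LNCaP and none in VCaP. Each runs 5′ to 3′ on the strand of the gene and ends 30 bases after the start. Capitals mark matches, on either strand, to an E2F site (TTTCCCGC, TTTCGCGC, TTTGCCGC or TTTGGCGC) or to the CHR letters TTTGAA and the variants TTCGAA as well as CTTGAA and also TTTAAA. They lie at chr10:60778228-60778507 on the plus strand (CDK1), chr3:48188388-48188667 on the minus strand (CDC25A), chr19:29811741-29812020 on the plus strand (CCNE1) and chr5:69166900-69167179 on the plus strand (CCNB1), all in GRCh38.p14.
CDK1: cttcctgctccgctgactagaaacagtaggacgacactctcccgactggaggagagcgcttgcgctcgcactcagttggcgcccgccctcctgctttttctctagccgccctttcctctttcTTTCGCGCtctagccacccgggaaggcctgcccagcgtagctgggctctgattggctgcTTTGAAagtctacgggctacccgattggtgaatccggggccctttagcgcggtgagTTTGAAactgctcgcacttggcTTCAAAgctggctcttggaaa
CDC25A: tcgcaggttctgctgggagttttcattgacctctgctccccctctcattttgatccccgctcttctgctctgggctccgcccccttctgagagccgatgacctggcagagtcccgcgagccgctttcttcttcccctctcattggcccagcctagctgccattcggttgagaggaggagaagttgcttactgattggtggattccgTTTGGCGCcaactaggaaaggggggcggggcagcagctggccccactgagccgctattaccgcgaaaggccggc
CCNE1: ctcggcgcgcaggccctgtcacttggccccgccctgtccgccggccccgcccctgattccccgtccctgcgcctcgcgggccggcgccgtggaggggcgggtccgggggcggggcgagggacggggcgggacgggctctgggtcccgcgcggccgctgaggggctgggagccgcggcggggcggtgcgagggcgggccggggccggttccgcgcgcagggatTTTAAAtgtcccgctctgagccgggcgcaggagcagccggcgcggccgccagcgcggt
CCNB1: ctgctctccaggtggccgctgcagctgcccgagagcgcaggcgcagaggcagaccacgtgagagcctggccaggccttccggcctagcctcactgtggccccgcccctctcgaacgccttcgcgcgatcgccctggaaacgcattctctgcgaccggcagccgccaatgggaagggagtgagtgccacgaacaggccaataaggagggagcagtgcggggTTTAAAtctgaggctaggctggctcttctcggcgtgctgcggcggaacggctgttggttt

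E2F letters were found in the promoter windows of CDC25A and CDK1, 2 of the 6 genes, while 4.10% of 22199 windows of protein-coding genes in the same table held them (3.31% of all 35116 windows). Only the 4 exact forms given above were searched, so a window without a match may still hold an E2F site in other letters. In CDC25A the match TTTGGCGC lay at positions -44 to -37 from the start, and in the CDK1 window shown TTTCGCGC lay at -128 to -121. The CDK1 window also held TTTGAA at -69 to -64 and at -13 to -8, and its reverse complement at 10 to 15. CHR letters of any of the 4 kinds occurred in CCNA2, CCNB1, CCNE1 and CDK1, 4 of the 6 genes, against 27.7% of protein-coding windows. In its canonical form TTTGAA the element occurred in CDK1 alone of the 6, against 12.4% of protein-coding windows. In CCNA2 the letters were CTTGAA, at -87 to -82 and -28 to -23. The only match was the variant TTTAAA in CCNB1, at -30 to -25, and in CCNE1, at -28 to -23. Whether any of these letters act as a CHR was not tested. The CCAAT box, the binding sequence of NF-Y, occurred in 5 of the 6 genes, all but CCNE1, against 34.7% of protein-coding windows. The GC box GGGCGG, bound by Sp1, occurred in all 6, against 56.3%. No match overlapped one of another kind. CDK1 has 2 overlapping windows in the table and CCND3 has 3 windows, and a gene was counted when any of its windows held a match. The shares count single windows instead, so the counts of genes at CDK1 and CCND3 had more chances of a match. These matches describe letters in RefSeq windows, which were not aligned to the hg19 peaks.

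Rb peaks were found at 8 of the 10 promoters in VCaP and at 9 of the 10 in LNCaP. CCND2 had none in either line, and CCNB1 had none in VCaP. For scale, 1.95% of the effective genome lay within 3 kb of an Rb summit in VCaP and 4.36% in LNCaP. These shares count any position of the genome and not promoters, since hg19 start sites of all genes were not used here. Most peaks lay on the start site itself: the highest peak of the gene covered it for 7 of the 8 genes in VCaP and 8 of the 9 in LNCaP, the exception being CCND1 in both. The highest peaks had their summits a median of 85 bp from the start site in VCaP (range 36 to 1870) and 112 bp in LNCaP (6 to 1713). The summits of CCND1 were the farthest inside the 3 kb limit, and the nearest summit outside it was that of a peak 7123 bp from the CDK2 start in VCaP and 7166 bp in LNCaP.

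**Figure D1:**
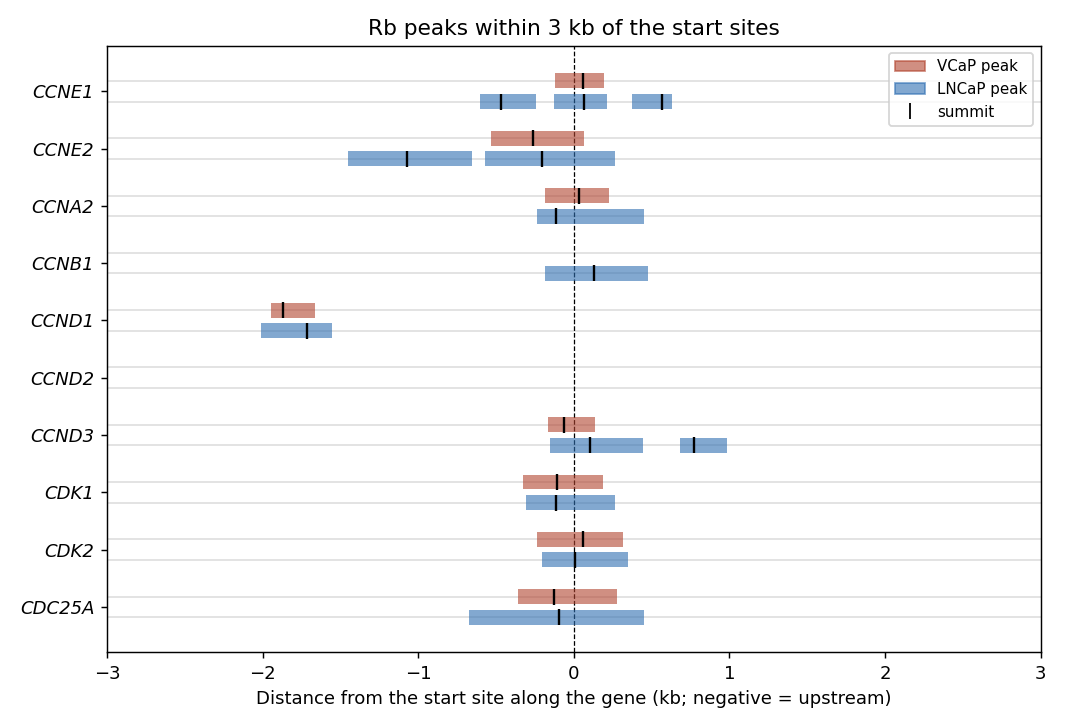
Position of Rb peaks relative to the start sites of the 10 genes, in kb along the direction of the gene. Bars are peak intervals, with the VCaP peaks (red) above the LNCaP peaks (blue) of each gene, and black ticks are summits. Every gene with a peak has one on its start site except CCND1, whose peaks lie 1870 bp (VCaP) and 1713 bp (LNCaP) upstream. Additional LNCaP peaks lie beside the start at CCNE1, CCNE2 and CCND3, and CCND2 is empty in both lines.

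The deposited fold enrichment was highest at the kinase genes and CDC25A. The authors' peak caller gave each peak a fold enrichment, which is the tags over its summit (the pileup) plus 1 divided by the local background of the same library plus 1. The added tag lowers folds most where the background is low. CDK1, which drives entry into mitosis together with cyclin B, had the strongest peak of the 10 genes in both lines. On chromosome 10, it spanned 62537883–62538398 in VCaP and 62537904–62538474 in LNCaP, with summits 106 and 115 bp upstream of the start. Its fold enrichment was 12.0 in VCaP (95% interval 8.56 to 16.5 from 37 tags) and 17.3 in LNCaP (13.0 to 22.7 from 51 tags). These intervals are exact Poisson limits of the pileup, put through the same formula with the background taken as known, and cover counting error only. By fold enrichment the CDK1 peak ranked 149 of 9393 in VCaP and 59 of 21955 in LNCaP, among peaks on chromosomes 1 to 22 and X.

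CDK2, the partner of cyclins E and A at the start of S phase, came second in both lines. Its peak on chromosome 12 lay at 56360318–56360869 in VCaP and 56360349–56360901 in LNCaP, with summits 60 and 6 bp downstream of the start. The fold enrichment was 11.0 in VCaP (7.67 to 15.3, 33 tags) and 14.9 in LNCaP (10.7 to 20.2, 39 tags), and the ranks were 221 and 181. CDC25A, which removes inhibitory phosphates from CDK2 and CDK1, came after it in both. Its peak on chromosome 3 was the longest of the genes in either line, with 639 bp in VCaP (48229521–48230159) and 1126 bp in LNCaP (48229350–48230475). Fold enrichment at CDC25A was 10.1 in VCaP (7.18 to 13.8, 37 tags) and 10.8 in LNCaP (7.86 to 14.4, 43 tags), close to each other, with ranks of 302 and 1164. CDK1, CDK2 and CDC25A were the 3 genes with a fold of at least 10 in VCaP, and also in LNCaP. Such peaks made up 3.32% of the whole VCaP list and 8.02% of the LNCaP list. Their counting intervals overlap within each line, and their order was not tested. With no tag added to pileup and background, CDK1 and CDK2 were still first and second in both lines. CDC25A then kept its place in VCaP, with a plain ratio of 13.4, whereas in LNCaP it had 13.9 and stood behind CCNA2 with 17.4.

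Both cyclin E genes, whose products activate CDK2 at the transition from G1 to S phase, had peaks in both lines, and LNCaP had additional peaks next to the start. At CCNE1 on chromosome 19, the VCaP peak at 30302777–30303092 had a fold enrichment of 7.18 (4.35 to 11.3, 17 tags). The overlapping LNCaP peak at 30302771–30303116 had 8.75 (6.07 to 12.2, 32 tags), and the summits were 8 bp apart. Another 2 LNCaP peaks flanked it, with a fold of 6.02 at a summit 467 bp upstream and 4.24 at 566 bp downstream. They stood at percentiles 50.4 and 7.91 of the LNCaP list by fold, and at 17.8 and 3.32 with no tag added. Together the 3 LNCaP peaks spanned 1236 bp, with gaps of 110 and 157 bp between them. Both gaps were shorter than the fragment length of 241 bp that the caller took for LNCaP. Whether the 3 peaks are separate sites was not tested. The flanking peaks had no counterpart in the VCaP list.

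CCNE2, on chromosome 8, had the highest pileup of the 10 genes in both lines, yet not the highest fold. The VCaP peak at 95907409–95908004 had 38 tags over its summit and a fold enrichment of 5.87 (4.20 to 7.997). The LNCaP peak at 95907207–95908044 had 56 tags and a fold of 9.37 (7.12 to 12.1). By pileup these peaks stood at percentile 96.8 of the VCaP list and 99.4 of the LNCaP list, and by fold at 61.1 and 89.2. The local background was the highest of the genes, 251 tags per 10 kb in VCaP and 211 in LNCaP, against list medians of 68.0 and 51.0. That background counts the peak's own tags as well. A second LNCaP peak of 803 bp, with a fold of 4.12, began 80 bp beyond the first on the upstream side, and the VCaP list had none there. This second peak stood at percentile 6.34 of the LNCaP list by fold and 1.27 with no tag added. Whether it is separate from the first was not tested.

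The cyclins of later phases differed in where they were called. CCNA2, whose product activates CDK2 in S phase and CDK1 thereafter, had a peak on chromosome 4 in both lines, at 122744859–122745273 in VCaP and 122744634–122745323 in LNCaP. Both had 13 tags over the summit, the fewest at any of the LNCaP genes' highest peaks. The fold enrichment was 5.44 in VCaP (3.08 to 9.02) and 8.01 in LNCaP (4.53 to 13.3), over backgrounds of 70.0 and 31.0 tags per 10 kb. CCNB1, whose product activates CDK1 for mitosis, had no VCaP peak within 3 kb. The nearest VCaP summit was 22641 bp downstream. In LNCaP its peak at 68462650–68463311 on chromosome 5 had a fold of 7.94 (4.94 to 12.2, 19 tags) and ranked 4687. A peak list holds no value where nothing was called, so the VCaP signal at this promoter is unknown. The weakest peaks of the VCaP list had 6 tags, and the difference between the lines at CCNB1 has no replicate check.

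The products of the D-type cyclin genes act upstream of Rb. The lowest fold of the genes was at CCND3 in VCaP and at CCND1 in LNCaP, and CCND2 had no peak at all. By deposited fold, the D-type genes were not below every other gene. In VCaP CCND1 (5.70) was above CCNA2 (5.44), and in LNCaP CCND3 (8.69) was above CCNA2 (8.01) and CCNB1 (7.94). With no tag added to the ratio, these orders were reversed. CCNA2 (8.25) was then above CCND1 (7.24) in VCaP, and CCNA2 (17.4) and CCNB1 (12.5) were above CCND3 (12.0) in LNCaP. On that measure CCNE2 was the lowest in VCaP (6.73, against 6.94 at CCND3). In LNCaP CCND3 was then above CCNE1 (11.5) and CCNE2 (11.0). At CCND1 on chromosome 11, the peaks were at 69453930–69454213 in VCaP and 69453865–69454317 in LNCaP, upstream of the start and not on it. Both had 22 tags, with a fold of 5.70 in VCaP (3.66 to 8.50) and 4.07 in LNCaP (2.62 to 6.07). This was the lowest fold of the genes' highest LNCaP peaks, at percentile 5.48 of that list. CCND3 on chromosome 6 showed the opposite order. Its peak at 41909450–41909750 had a fold of 4.51 in VCaP (2.38 to 7.95, 10 tags), the lowest of the VCaP genes, at percentile 14.0. In LNCaP the overlapping peak at 41909139–41909736 had 8.69 (5.87 to 12.4, 28 tags), at percentile 84.9, and a second peak with a fold of 5.06 lay 774 bp downstream of the start. The nearest summits to the CCND2 start on chromosome 12 were 47236 bp away in VCaP and 34330 bp in LNCaP, both downstream.

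**Figure D2:**
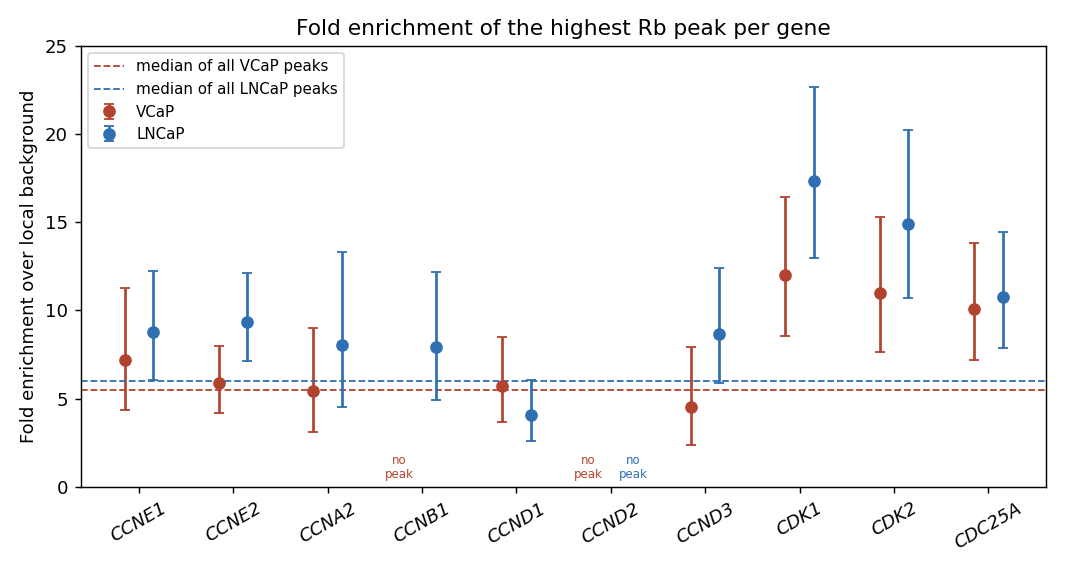
Fold enrichment over local background (vertical axis) of the highest Rb peak of each gene in VCaP (red, left) and LNCaP (blue, right). Points are the deposited values of 1 library per line, error bars are 95% counting intervals, and dashed lines are the medians of all peaks, 5.51 in VCaP and 6.00 in LNCaP. CDK1, CDK2 and CDC25A stand at or above 10 in both lines, and the error bars of VCaP and LNCaP overlap at every gene with a peak in both.

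As a group, the genes' peaks were higher and longer than the middle of their lists, although some lay below it, and how far above depended on the added tag. The highest peaks per gene had a median fold enrichment of 6.52 in VCaP (range 4.51 to 12.0, 8 genes) and 8.75 in LNCaP (4.07 to 17.3, 9 genes), against medians of 5.51 over all VCaP peaks and 6.00 over all LNCaP peaks. The fold was above the list median at 6 of the 8 genes in VCaP, all but CCNA2 and CCND3, and at 8 of the 9 in LNCaP, all but CCND1. Their median length was 466 bp in VCaP and 598 bp in LNCaP, against 313 and 395 bp over the lists. The median pileup was 27.5 tags in VCaP and 32 in LNCaP, against 13 in each list. Taking the highest peak of each gene favours high values in LNCaP, where 3 genes had several peaks, and none in VCaP did. Over all 13 LNCaP peaks of these genes the median fold was 8.01. The median percentile of the highest peaks was 73.2 in VCaP and 85.3 in LNCaP by fold, and 60.9 and 56.5 by the ratio with no tag added. By that ratio more genes lay below the middle of their list than by fold. In VCaP these were CCNA2 (percentile 41.3), CCND1 (24.2), CCND3 (19.5) and CCNE2 (16.2). In LNCaP they were CCNE1 (48.8), CCNE2 (44.2) and CCND1 (1.24). The other genes with a peak lay above it.

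**Figure D3:**
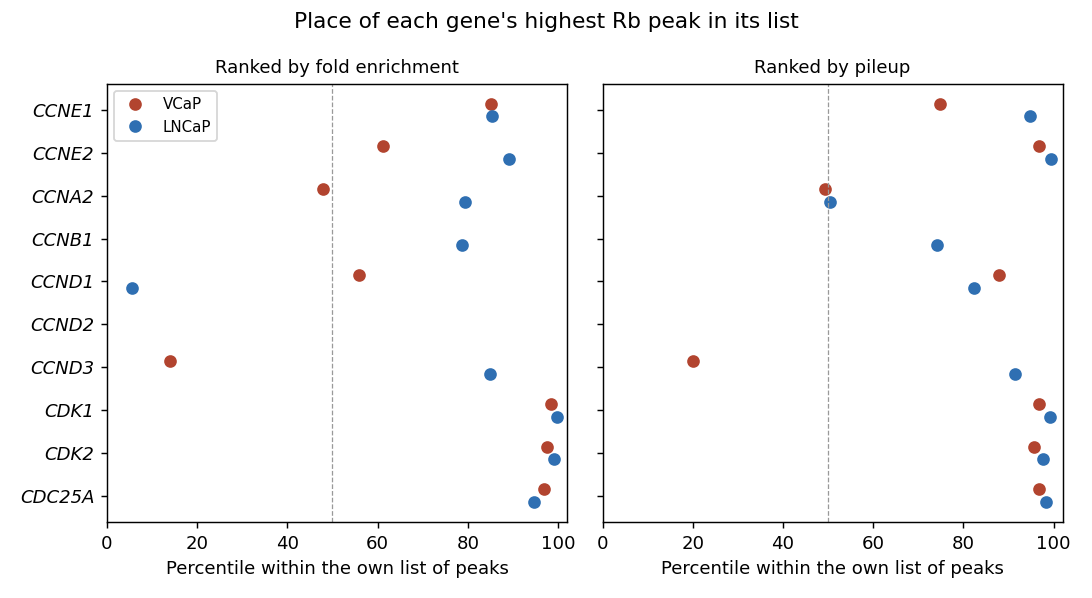
Percentile of each gene's highest Rb peak among all peaks of its own list (horizontal axes, 100 is the highest), ranked by fold enrichment (left) and by pileup (right), in VCaP (red) and LNCaP (blue). The dashed line marks the middle of the list. CDK1, CDK2 and CDC25A stand at percentile 94.7 or higher in both panels, while CCND1 in LNCaP and CCND3 in VCaP fall to percentiles 5.48 and 14.0 by fold.

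Peaks were shared between the lines at every gene that had one in VCaP. Each of the 8 VCaP peaks overlapped with an LNCaP peak of the same gene, while 71.2% of the whole VCaP list overlapped with one of LNCaP. From the other side, 8 of the 13 LNCaP peaks had a VCaP counterpart, against 30.2% of all LNCaP peaks. The other 5 were the flanking peaks of CCNE1, CCNE2 and CCND3 and the single peak of CCNB1. Summits of the highest peaks were a median of 57 bp apart between the lines (range 8 to 171), against 73 bp over all 6688 overlapping pairs. They were closest at CCNE1 (8 bp) and CDK1 (9 bp) and farthest apart at CCND3 (171 bp), CCND1 (157 bp) and CCNA2 (148 bp).

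Fold enrichment was the lower in VCaP at 7 of the 8 genes with a peak in both lines, and LNCaP had the higher value in 80.8% of all overlapping pairs, so that these genes were near the background of the lists. The ratio of VCaP over LNCaP had a median of 0.716 over the 8 genes and was lowest at CCND3 (0.519) and highest at CCND1 (1.40), the gene with the higher fold in VCaP. On the log2 scale, 6 of the 8 genes lay within the middle 50% of all pairs (-0.69 to -0.09), and CCND3 (-0.95) and CCND1 (0.49) lay outside it. The counting intervals of VCaP and LNCaP overlapped at all 8 genes. They were apart in 2.29% of all pairs.

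Scaled to the library, both the summit and its surroundings had fewer tags in VCaP. After filtering the VCaP library had 8691938 tags and the LNCaP library 3671482. Per 1000000 tags of the library, the pileup of the highest peak had a median of 3.16 in VCaP (range 1.15 to 4.37, 8 genes) and 8.72 in LNCaP (3.54 to 15.3, 9 genes). It was the higher in LNCaP at all 8 genes with both, and in 98.7% of all pairs. The tags in the 10 kb around the peak, scaled likewise, were also more in LNCaP at all 8 genes and in 94.3% of all pairs. These local tags include those of the peak itself and of any other peak in the 10 kb, so they are not a separate measure. At CCNA2 these local tags were nearly equal, 8.05 per 1000000 in VCaP and 8.44 in LNCaP, a log2 ratio of -0.07. At CCNE1 they differed most, with 7.71 in VCaP and 31.3 in LNCaP, a log2 ratio of -2.02, and the median over all pairs was -1.24. CCNE1 had 3 peaks within 3 kb of its start in LNCaP and 1 in VCaP. The local tags at CCND1 were 15.5 per 1000000 in VCaP and 52.6 in LNCaP, beside equal raw pileups of 22. The scaling itself enters these ratios. CCNA2 and CCND1 each had equal raw pileups in the lines, and their scaled pileups had a log2 ratio of -1.24 from library size alone. The median raw pileup was 13 tags in both whole lists. Both lines are aneuploid, and each has 1 library and no input. Library size, DNA copy number, antibody yield and Rb binding cannot be told apart in these values.

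**Figure D4:**
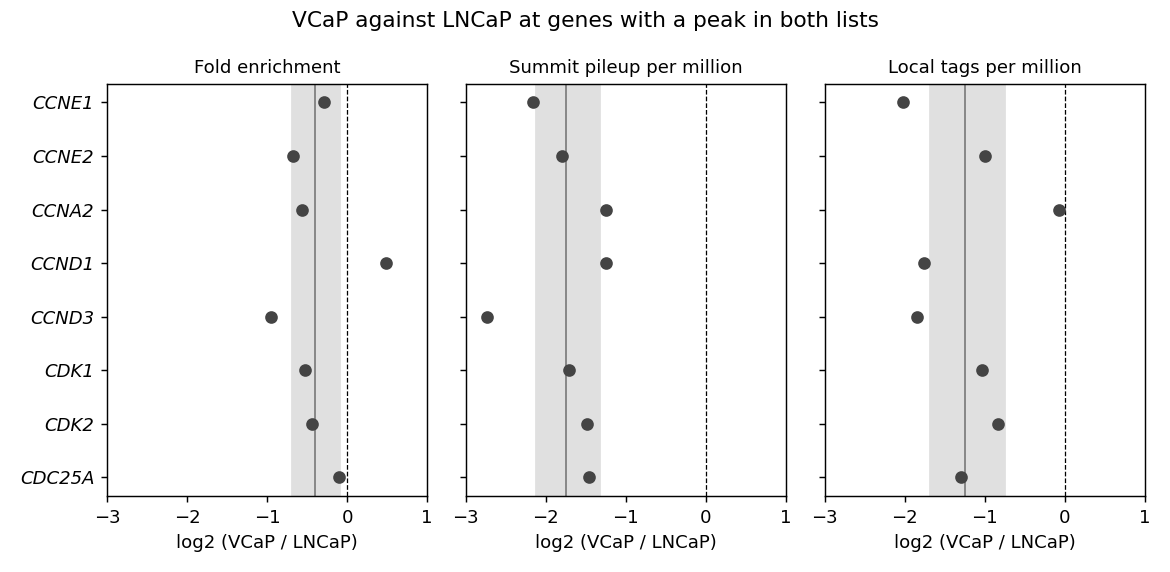
Log2 ratio of VCaP over LNCaP (horizontal axes) at the 8 genes with a peak in both lists, for fold enrichment (left), summit pileup per 1000000 tags (middle) and tags in the surrounding 10 kb per 1000000 tags (right). Grey bands hold the middle 50% of all 6688 overlapping pairs, grey lines are their medians and dashed lines mark equality. CCND1 (0.49) and CCND3 (-0.95) lie outside the band for fold enrichment, and CCNA2 (-0.07) is the nearest to equality for local tags.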

How the data were processed

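Rb ChIP-seq of 1 VCaP and 1 LNCaP library was analysed from the deposited peak lists. The authors ran MACS 2.1.0.20140616 on each library alone, per the file headers, with no control, a q-value limit of 0.05 and 1 tag kept per position. The submitters' processing notes name hg19, MACS2 and HOMER; the aligner is not given in the sources used here. The deposited pileup is a coverage signal in tags, unscaled. The deposited fold enrichment is a ratio of pileup to local background with 1 tag added to each, as found from the values, and the deposited −log10 q-values and −log10 p-values come from the same caller. All are the authors' values per peak.

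Here, peaks with a summit within 3 kb of the given hg19 start sites were taken, on chromosomes 1 to 22 and X. The 10 genes, the settings and the motif letters were chosen with earlier results of these data known; all 10 genes are named. Local background was computed back from fold and pileup. As tags per 10 kb, 100% of the values above the library's genome mean were whole numbers to within 0.05 tags. Overlap means at least 1 shared bp, taking the partner of highest fold. Strands of CCNE2, CCND1, CCND2 and CDK2 are from general annotation. Other cyclin and CDK pathway genes were not counted, since no hg19 start sites for them were used here. The summit files repeat the peak tables. Scripts ran in Python 3.11.15 with numpy 2.4.6, pandas 2.3.3 and scipy 1.17.1, and were tested on simulated intervals.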

Additional observations from a re-analysis of the deposited data

How the results depend on the processing

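The number of genes with a peak was the same with limits of 5 or 10 kb, or when any base of the peak had to lie within 3 kb: 8 in VCaP and 9 in LNCaP. With 1 kb it was 7 and 8, without CCND1. A fold enrichment of at least 10 left 3 genes in VCaP and 3 in LNCaP. CCND3 was lost in VCaP at a −log10 q of at least 5 and at a fold of at least 5, and CCND1 in LNCaP at a fold of at least 5 or with lists of equal length. The shared genes numbered 7 or 8 in every setting tried, and genes with the higher value in LNCaP 6 to 8 of 8. The median percentile of the genes' peaks was 73.2 in VCaP and 85.3 in LNCaP by fold, 91.8 and 94.9 by pileup, and 87.5 and 92.6 by −log10 q. By pileup over background with no tag added, a setting chosen after seeing the data, it was 60.9 and 56.5, and CDC25A in LNCaP stood at 67.1. The cause of these differences was not tested. No paired analysis was possible because each line has 1 library and no test was made. A promoter without a peak may still carry Rb below the caller's limit, and peaks called without a control can include background signal.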

Other observations

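Around the 10 genes, from 3 to 50 kb of the start sites, the VCaP list held 8 further Rb peaks and the LNCaP list 19. The whole lists held 9393 and 21955 peaks on the same chromosomes, so the LNCaP list was also the longer genome-wide. All 8 VCaP peaks had an LNCaP counterpart, against 71.2% of the whole VCaP list. Of the 19 LNCaP peaks, 8 had one in VCaP, against 30.2% of the whole LNCaP list. CDK2 had the most of these, 3 in VCaP and 5 in LNCaP, and CDC25A had none in either line. The peak 7123 bp downstream of the CDK2 start in VCaP had a fold enrichment of 11.1, slightly above the 11.0 at the CDK2 start in that line. In LNCaP the corresponding peak had 8.65, below the 14.9 at the start. RAB5B, a regulator of endosome traffic, is the next protein-coding gene in the RefSeq order.

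The strongest peak in these surroundings lay on chromosome 4, downstream of CCNA2 at 122722354–122722759 in VCaP and 122722310–122722773 in LNCaP. It reached a fold of 12.6 in VCaP and of 21.7 in LNCaP, where it ranked 6 of 21955, far above the CCNA2 promoter with 5.44 and 8.01. EXOSC9, a subunit of the RNA exosome, precedes CCNA2 in the RefSeq order on that chromosome. Downstream of CCNB1 a peak with a fold of 7.09 in VCaP and 12.8 in LNCaP lay 22641 and 22678 bp from the start, and CENPH, a centromere protein gene, follows CCNB1 in that order. No hg19 annotation was used here, so these peaks are not assigned to either gene. CCND1 had 3 such peaks in LNCaP, with folds of 3.91, 7.38 and 5.96, and none in VCaP.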
